A study of Homo sapiens with 96 samples.

Results

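The genes described here are 10 feedback targets of fibroblast growth factor (FGF) and ERK signalling: the ETS transcription factors ETV1, ETV4 and ETV5, the Sprouty genes SPRY1, SPRY2 and SPRY4, the Sprouty-related genes SPRED1 and SPRED2, and the phosphatases DUSP4 and DUSP6. They are 10 of the 58434 genes in the deposited table, found by matching Ensembl identifiers to symbols, and were chosen by their lower counts in methyl mercury than in control, with results of these data known. RNA was sequenced from 96 libraries in 12 groups of 8, made from neural progenitor cells (NPC) of the human embryonic stem cell line H9 and from the neuron–astrocyte cultures grown from them. The 10 exposed groups were day 10 co-cultures given acrylamide, chlorpyrifos, fluoxetine (as hydrochloride), methyl mercury (as chloride) or valproic acid (as sodium salt), each at IC5 and at IC20/100. The other groups were unexposed day 10 co-cultures (control) and NPC at day 0. Chlorpyrifos, fluoxetine and methyl mercury were dissolved in DMSO (0.25% in the final medium), and the other compounds directly in medium. The sources used here do not give the molar concentrations, how long the cultures were exposed, what IC20/100 stands for, or whether control cultures held DMSO. All day 10 cultures were differentiated in medium with GDNF, BDNF and dibutyryl cyclic AMP, with CNTF during the first week. The 8 libraries of a group were technical replicates of 1 experiment on 1 cell line, so the p-values below measure only the spread between such libraries.

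FGFs bind receptor tyrosine kinases and switch on RAS, RAF, MEK and the kinase ERK. Active ERK phosphorylates transcription factors and raises the mRNA of a small set of genes, many of which turn the signal down again: Sprouty and SPRED proteins act on RAS and RAF activation, and DUSP6 removes the activating phosphates from ERK itself. ETV1, ETV4 and ETV5 are ETS factors whose mRNA follows FGF signalling closely in many embryonic tissues, and neural progenitors are commonly grown with FGF.

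Upstream sequences are shown for 1 start each of SPRY4, ETV1 and SPRY2, windows that hold an ETS or cyclic AMP response core, and for 1 of the 2 starts of SPRY1, a window that holds neither. They are RefSeq sequences of build GRCh38.p14, 250 bases directly before 1 annotated start of each gene, read 5′ to 3′ on the gene's own strand. The intervals are chr5:142324248-142324497 on the minus strand for SPRY4, chr7:13991426-13991675 on the minus strand for ETV1, chr13:80341127-80341376 on the minus strand for SPRY2 and chr4:123396545-123396794 on the plus strand for SPRY1. Capitals mark CCGGAA, the core that ETS factors bind, and TGACG, the core of the cyclic AMP response element, both searched on either strand.
SPRY4: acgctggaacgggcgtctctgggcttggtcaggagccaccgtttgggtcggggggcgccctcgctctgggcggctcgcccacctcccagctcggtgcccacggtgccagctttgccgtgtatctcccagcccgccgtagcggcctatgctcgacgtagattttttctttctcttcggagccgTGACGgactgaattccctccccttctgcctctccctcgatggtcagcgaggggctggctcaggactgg
ETV1: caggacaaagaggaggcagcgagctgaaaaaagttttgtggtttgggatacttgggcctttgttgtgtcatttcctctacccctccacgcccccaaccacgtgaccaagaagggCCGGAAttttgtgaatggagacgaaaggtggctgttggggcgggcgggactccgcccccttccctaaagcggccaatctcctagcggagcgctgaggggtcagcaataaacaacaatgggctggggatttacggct
SPRY2: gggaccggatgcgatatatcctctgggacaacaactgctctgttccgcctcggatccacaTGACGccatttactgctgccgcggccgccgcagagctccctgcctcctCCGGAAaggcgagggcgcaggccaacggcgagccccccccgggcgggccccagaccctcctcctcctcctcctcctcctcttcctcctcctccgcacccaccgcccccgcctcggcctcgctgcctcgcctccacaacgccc
SPRY1: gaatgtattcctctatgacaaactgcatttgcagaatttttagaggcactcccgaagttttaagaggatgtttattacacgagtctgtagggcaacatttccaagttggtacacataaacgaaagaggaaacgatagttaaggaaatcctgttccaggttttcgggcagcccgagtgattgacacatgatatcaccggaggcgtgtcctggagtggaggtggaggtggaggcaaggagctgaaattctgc
Counting back from the start, CCGGAA began at base -136 in ETV1 and at -142 in SPRY2, and TGACG began at base -68 in SPRY4 and at -190 in SPRY2. The SPRY1 window held neither, which says only that these letters are absent from it: the window of the other SPRY1 start (chr4:123398136-123398385) held CCGGAA at base -67. Of the SPRY4 window, 170 bases lie in an exon of a non-coding transcript. The RefSeq table matched 7 of the 10 members with 16 starts in all; ETV4, ETV5 and DUSP4 had no match. CCGGAA stood before 5 of these starts and TGACG before 5, and for each motif 3 of the 5 were starts of ETV1, some of whose windows overlap and hold the same site. SPRED1, SPRED2 and DUSP6 held neither motif at any listed start. However, the only listed windows of SPRED1 and DUSP6 lie wholly (250 bases) in exons of coding transcripts, so they are transcribed sequence. The SPRY1 window with CCGGAA also holds 201 such bases. Over 35116 human promoter windows of that length, 14.5% held CCGGAA and 21.2% held TGACG. A match is a description of the letters and not a bound site.

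Sequencing depth was between 9.49 and 29.6 M reads assigned to genes per library, with a median of 18.9 M. The values below are normalised read counts, the deposited counts divided by a factor for each library. One library stood apart: library 8 of methyl mercury IC20/100 had a summed normalised count of 20.95 M, against 18.11 to 18.99 M in every other day 10 library, and the highest sum over all day 10 libraries of 12 progenitor markers (157946, against 107525 to 115906 in control). Neuron markers were abundant, with doublecortin (DCX) at 27004 ± 1633 in control and 16111 ± 1026 in NPC (SD, n = 8 each). Of 12 neuron markers 8 were called higher and 3 lower in control than in NPC, where 70.7% of all genes were called. The sum of the 12 was 101833 to 108561 in control and already 79031 to 85145 in NPC. Of 8 astrocyte markers, GFAP averaged 25.7 in control and 9.70 in NPC, ALDH1L1 18.9 and 7.61, S100B 19.4 and 74.4, and AQP4 5.41 and 21.6, with AQP4 at 0 in 1 control library. SLC1A3 averaged 1941 in control and 872 in NPC and SLC1A2 2850 and 2935, and the sum of all 8 was 4478 to 5750 in control and 3871 to 5598 in NPC, so markers of this list differed widely in level and their summed ranges overlapped. All 10 members passed the filter on low values in both fits. In build GRCh38 they lie at chr7:13891228-13991425 (ETV1), chr17:43527844-43579620 (ETV4), chr3:186046308-186110318 (ETV5), chr4:123396795-123403760 (SPRY1), chr13:80335976-80340951 (SPRY2), chr5:142310427-142326455 (SPRY4), chr15:38252326-38357249 (SPRED1), chr2:65310851-65432637 (SPRED2), chr8:29333064-29350668 (DUSP4) and chr12:89347232-89353271 (DUSP6), each a whole gene, with SPRY1 and SPRED1 on the plus strand and the others on the minus strand.

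ETV1 was the most evenly spread of the ETS factors. In methyl mercury its lowest, median and highest normalised counts were 357, 516 and 577 at IC5 and 264, 522 and 672 at IC20/100, against 676, 790 and 848 in control and 2870, 3000 and 3214 in NPC. The 264 at IC20/100 came from library 8, and the next lowest was 404. No methyl mercury library of ETV1 reached the lowest control library, and no day 10 library of any group reached NPC. The order of its group means ran from NPC (3037) through control (780), acrylamide IC20/100 (772), valproic acid IC5 (742), valproic acid IC20/100 (694), acrylamide IC5 (663), fluoxetine IC20/100 (572), chlorpyrifos IC20/100 (535) and chlorpyrifos IC5 (526) to methyl mercury IC5 (504), methyl mercury IC20/100 (500) and fluoxetine IC5 (451). NPC was separate, and every other neighbour in that order overlapped the next.

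ETV4 was a scarce transcript at day 10. Its lowest, median and highest counts were 20.9, 49.9 and 69.0 in methyl mercury IC5, which rest on 17 to 70 sequenced reads, and 64.1, 82.8 and 93.5 in methyl mercury IC20/100, against 98.4, 142 and 187 in control and 2578, 2696 and 3319 in NPC. Both methyl mercury groups lay wholly below control, and IC5 was the lowest group of all by its mean of 46.7, with fluoxetine IC5 (53.3) and acrylamide IC5 (65.1) next above it and overlapping it. The means of the remaining exposed groups lay between 76.5 (chlorpyrifos IC20/100) and 119 (acrylamide IC20/100).

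The ETV5 count is uncertain at day 10. On the same strand DGKG, a diacylglycerol kinase gene, shares 164 of the 5802 exon bases of ETV5. DGKG was above 100 in 17 of the 88 day 10 libraries and near 0 in most others. ETV5 itself was 73.7, 102 and 556 in control (lowest, median and highest), with 556 and 466 in libraries 3 and 4, and 33.9, 46.0 and 78.8 in methyl mercury IC5. The summed count of both genes was 33.9, 53.8 and 396 in methyl mercury IC5, against 84.4, 138 and 558 in control, so the groups overlapped widely on the sum. In NPC ETV5 had 796, 869 and 1112 while DGKG ran from 1.33 to 2514, and the sum, 857 to 3407, lay wholly above that of control. How reads were divided between these genes was not tested. Annotated genes also overlap ETV4 (DHX8), SPRY4 (SPRY4-AS1) and ETV5 (ETV5-AS1) on the opposite strand, and the sources used here do not say whether counting used strand.

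**Figure D1:**
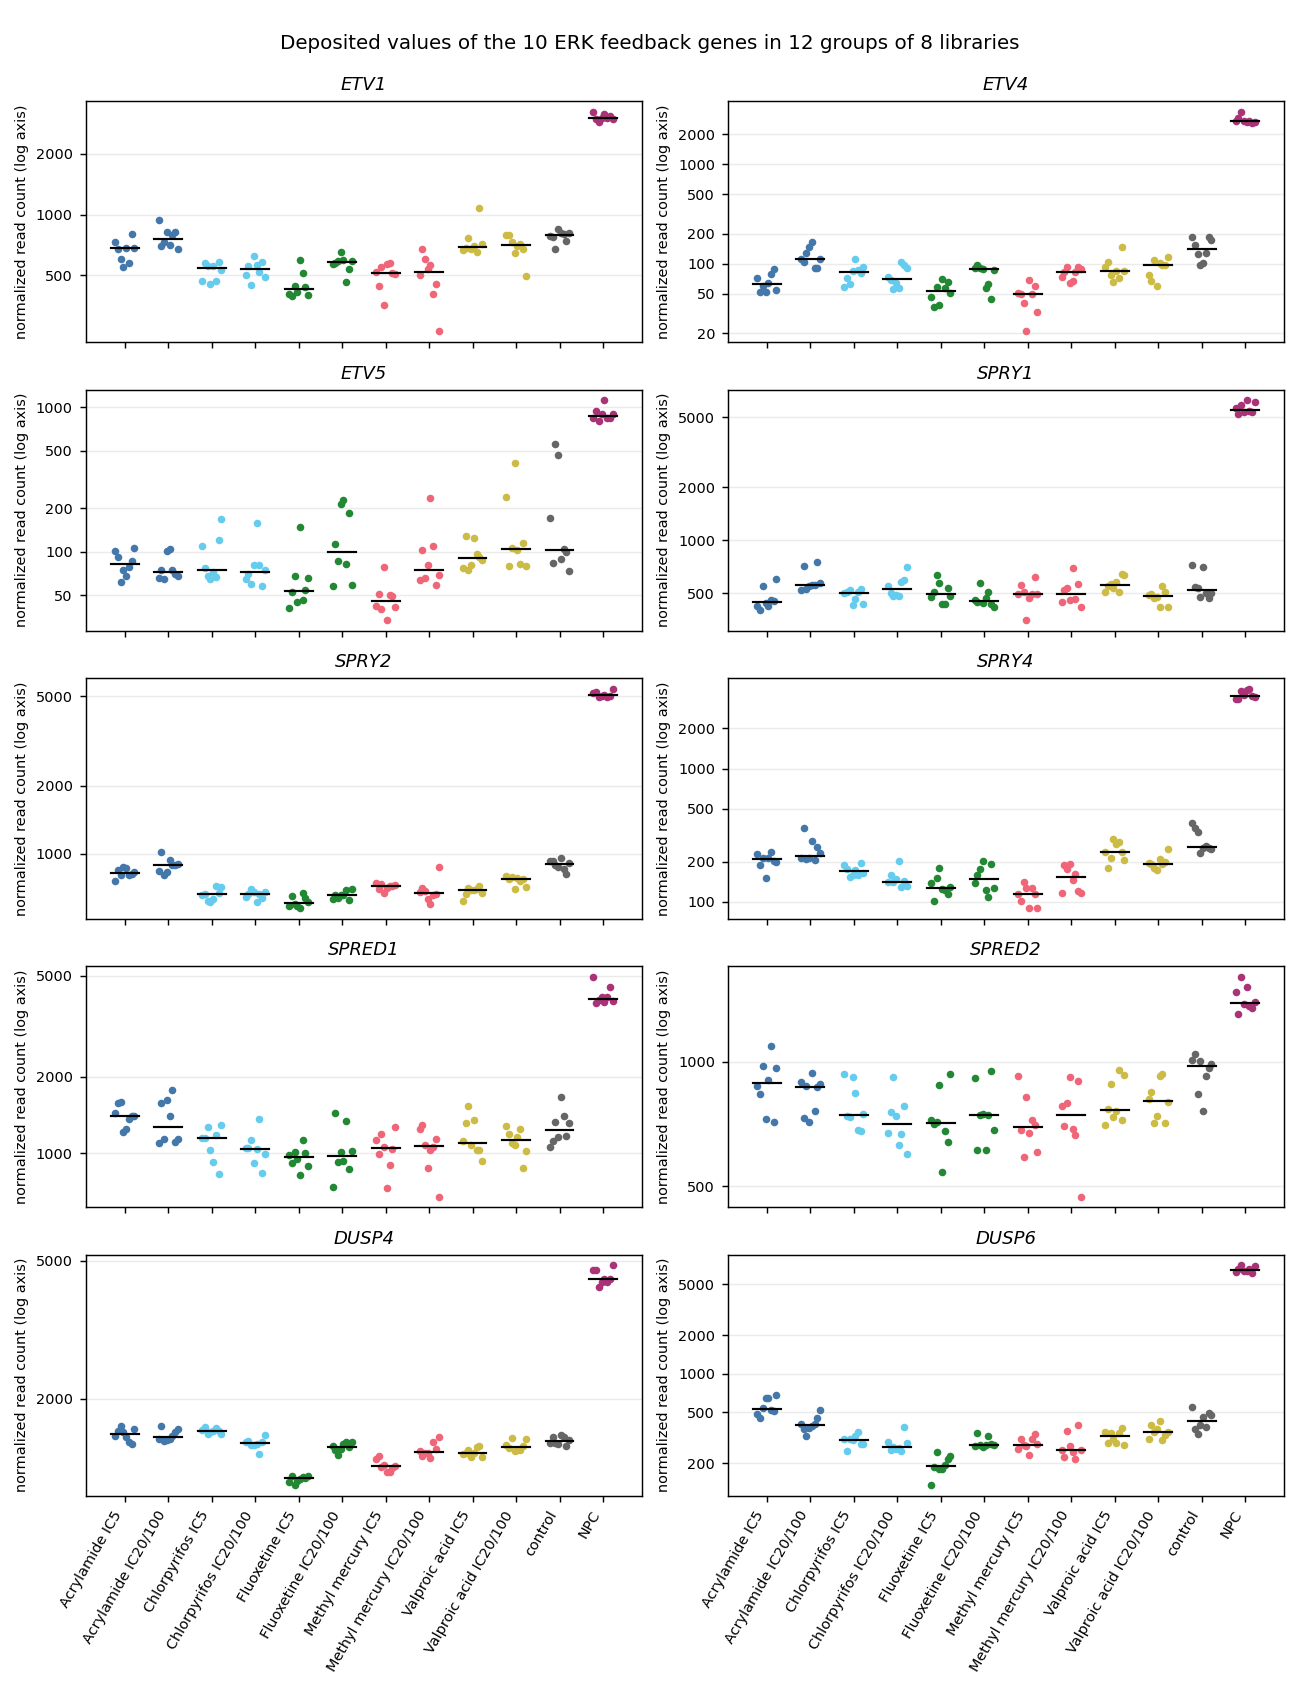
Normalised read counts of the 10 genes (log axis) in each of 8 libraries (points) of the 12 groups on the horizontal axis, with the group median as a black bar. NPC libraries were above every day 10 library in all 10 panels. Among day 10 groups the means of ETV4 run from 46.7 to 145, those of DUSP6 from 196 to 563 and those of SPRY4 from 112 to 291, and 2 control libraries of ETV5 lie at 466 and 556.

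Sprouty proteins are inhibitors of receptor tyrosine kinase signalling, and the 3 measured members differed in how far they varied. SPRY4 had 89.2, 114 and 140 (lowest, median and highest) in methyl mercury IC5 and 116, 153 and 190 in methyl mercury IC20/100, against 233, 257 and 386 in control and 3310, 3531 and 3971 in NPC. Both methyl mercury groups were wholly below control, and IC5 had the lowest mean of any group (112), followed upwards by fluoxetine IC5 (132). SPRY2 was measured tightly, with a median coefficient of variation of 4.7% over the 12 groups. It had 672, 722 and 745 in methyl mercury IC5 and 597, 671 and 876 in methyl mercury IC20/100, against 816, 904 and 956 in control and 4965, 5053 and 5393 in NPC. The 876 came from library 8, and without that library the IC20/100 group ended at 703, below every control library. SPRY1 separated the day 10 groups little: its day 10 means ran from 466 (fluoxetine IC20/100) to 594 (acrylamide IC20/100), with 498 in methyl mercury IC5, 511 in methyl mercury IC20/100 and 556 in control, and neighbours overlapped throughout. In NPC it had 5227, 5502 and 6216.

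SPRED1 and SPRED2 hold back RAF activation with the help of neurofibromin. SPRED1 had 728, 1045 and 1264 in methyl mercury IC5 and 674, 1068 and 1289 in methyl mercury IC20/100, against 1058, 1236 and 1660 in control and 3897, 4052 and 4931 in NPC. SPRED2 had 590, 694 and 922 in methyl mercury IC5 and 473, 742 and 917 in methyl mercury IC20/100, against 762, 975 and 1041 in control and 1307, 1385 and 1600 in NPC. The lowest methyl mercury IC20/100 values, 674 for SPRED1 and 473 for SPRED2, came from library 8, and the next lowest were 873 and 664. Both genes overlapped between methyl mercury and control, and their day 10 group means lay within 960 to 1402 for SPRED1 and within 716 to 941 for SPRED2.

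The phosphatases behaved unlike each other. DUSP4, a nuclear MAP kinase phosphatase, had the smallest spread between libraries (median coefficient of variation 3.4%), and its day 10 means lay between 1175 (fluoxetine IC5) and 1617 (chlorpyrifos IC5). It had 1232, 1279 and 1366 in methyl mercury IC5 and 1354, 1405 and 1551 in methyl mercury IC20/100, against 1464, 1508 and 1576 in control and 4204, 4444 and 4850 in NPC. Methyl mercury IC5 was wholly below control and wholly above fluoxetine IC5, the only neighbours below NPC in the order of any member that did not overlap. DUSP6, the cytoplasmic phosphatase specific for ERK, had 234, 279 and 337 in methyl mercury IC5 and 217, 254 and 401 in methyl mercury IC20/100, against 339, 430 and 549 in control and 6100, 6487 and 7039 in NPC. Its lowest group was fluoxetine IC5 (136, 192 and 246), and its highest at day 10 was acrylamide IC5 (452, 535 and 681).

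Per kilobase of annotated exon, the members' order at day 10 was not that in NPC. Mean control levels per kilobase were highest for SPRY2 (294.5), DUSP4 (208.9) and SPRED2 (182.5) and lowest for SPRY4 (44.3), ETV4 (40.1) and ETV5 (35.4). In NPC the highest were SPRY2 (1680), SPRY1 (1422) and DUSP6 (1412), with ETV4 at 771 and ETV5 lowest at 154. Exon length is the union of all annotated exons, so these levels are approximate where short transcripts dominate.

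Methyl mercury, the exposure in view when the genes were picked, gave counts below control for all of them, and its differences are described without a test. At IC5 the log2 differences from control (on log2 of the count plus 2, with SE) were -1.70 ± 0.30 for ETV5, -1.60 ± 0.16 for ETV4, -1.34 ± 0.12 for SPRY4, -0.64 ± 0.10 for ETV1 and -0.59 ± 0.11 for DUSP6. The remaining differences were -0.38 for SPRED2, -0.32 for SPRY2, -0.32 for SPRED1, -0.25 for DUSP4 and -0.16 for SPRY1. ETV4, SPRY4, ETV1, DUSP6, SPRY2 and DUSP4 lay wholly below control, 6 of the 10, as did 1.84% of all 20136 genes tested; limma called 10.9% of all genes in either direction. The genes were chosen by this difference, so nothing is read from that count. The median over the members was -0.49, against 0.01 over all genes. Without control libraries 3 and 4 the ETV5 difference was -1.10 at IC5 and -0.19 at IC20/100.

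At IC20/100 of methyl mercury all 10 differences were again negative, with a median of -0.53 against 0.00 over all genes. SPRY4 (-0.90 ± 0.12), ETV5 (-0.75 ± 0.30), ETV4 (-0.73 ± 0.16), DUSP6 (-0.66 ± 0.11) and ETV1 (-0.65 ± 0.10) were lowest, and DUSP4 (-0.10) and SPRY1 (-0.12) were nearest to control. ETV1, ETV4 and SPRY4 lay wholly below control, 3 of the 10, as did 1.16% of all genes; limma called 15.8% of all genes in either direction. Against IC20/100, IC5 was lower in ETV5 (48.4 ± 13.6 at IC5 and 98.3 ± 57.8 at IC20/100, SD, n = 8 each; log2 difference -0.95 ± 0.30 SE). It was also lower in ETV4 (46.7 ± 15.2 at IC5 and 80.7 ± 11.2 at IC20/100, -0.87), SPRY4 (means of 112 and 152; -0.43) and DUSP4 (1285 ± 47.3 and 1428 ± 67.7; -0.15 ± 0.02), and 7 of 8 IC5 libraries of ETV5, ETV4 and DUSP4 were below every IC20/100 library. SPRY2 differed by 0.08, and ETV1, SPRY1, SPRED1, SPRED2 and DUSP6 by at most 0.07 in either direction. The median difference over the members was -0.04, and without library 8 of IC20/100 it was -0.11; 5.17% of all genes were called between these concentrations. Markers of other cell types moved with these values: of 12 neuron markers 8 were called lower at IC5 and 4 at IC20/100, with none higher, and their sum at IC5 was 90051 to 97719, against 101833 to 108561 in control. Of 7 oligodendrocyte-lineage markers 3 were called lower and 0 higher at each concentration. Their median log2 difference was 0.05 at IC5, so the list did not fall as a whole there, and -0.39 at IC20/100. Their sum was 5956 to 7178 at IC5 and 5711 to 8070 at IC20/100, against 10442 to 11714 in control. Of 8 mesenchymal markers 3 were called lower at IC5 and 2 at IC20/100, with 0 higher, and median log2 differences of -0.53 and -0.28. Their sum was 1281 to 1967 at IC5 and 1191 to 2124 at IC20/100, overlapping the 1666 to 2159 of control. In bulk RNA, fewer cells of a type and less RNA per cell cannot be told apart, and the part of these markers in the members' values was not tested.

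**Figure D2:**
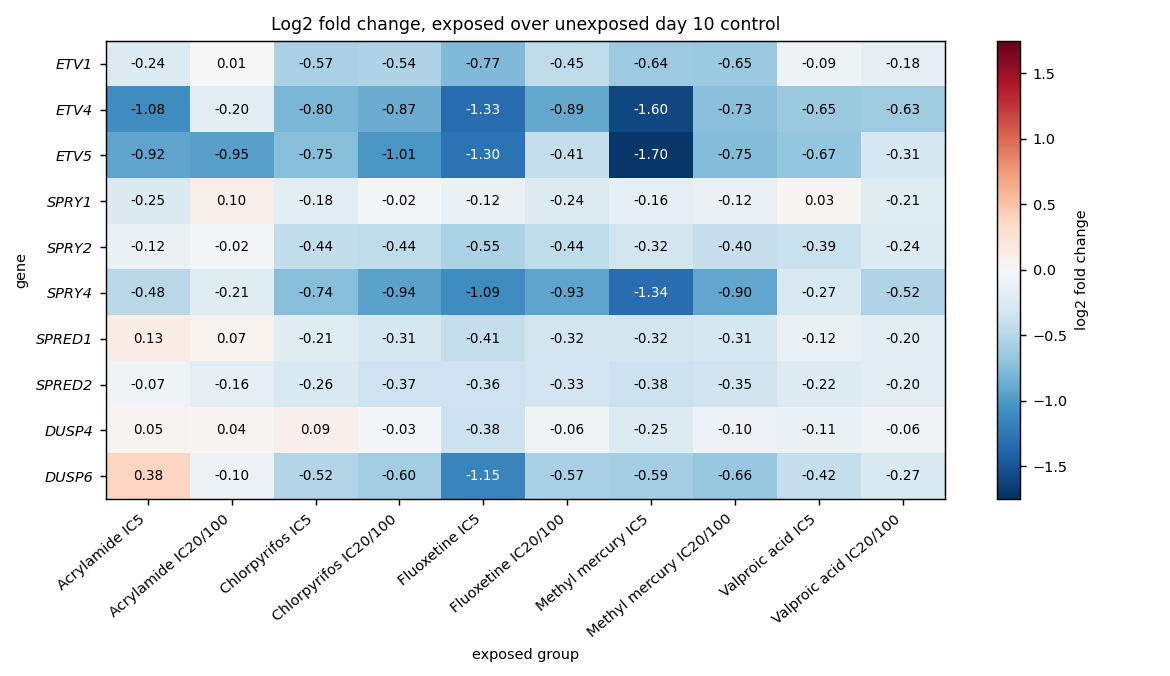
Fitted log2 differences of the 10 genes (rows) between each of the 10 exposed groups (columns) and the unexposed day 10 control, as numbers and colours (blue lower, red higher than control). The lowest cells are ETV5 and ETV4 in methyl mercury IC5 (-1.70 and -1.60), and the highest is DUSP6 in acrylamide IC5 (0.38).

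The other exposures were tested with limma against the same 8 control libraries that the methyl mercury differences rest on, so they are not independent of those differences, and the values are set side by side without counting across them. The summed count of the 7 oligodendrocyte-lineage markers moved with several of them: it was 5827 to 6691 in fluoxetine IC5, 6888 to 8140 in fluoxetine IC20/100, 7449 to 8428 in chlorpyrifos IC5, 7522 to 8427 in chlorpyrifos IC20/100, 5682 to 6303 in acrylamide IC5 and 8296 to 9699 in valproic acid IC5, all below the 10442 to 11714 of control. It overlapped control in acrylamide IC20/100 (9814 to 11041) and valproic acid IC20/100 (9116 to 10484), and its part in the members' values was not tested. The 7 markers did not move as one. Their median log2 difference was 0.19 in chlorpyrifos IC5 (3 called lower, 1 higher) and 0.19 in valproic acid IC5 (2 lower, 1 higher). The median was -0.20 in fluoxetine IC5 (1 lower, 0 higher). In acrylamide IC5 (-0.26), fluoxetine IC20/100 (-0.20) and chlorpyrifos IC20/100 (-0.40), 3 were called lower and 0 higher. With fluoxetine IC5, 9 of the 10 genes fell, all but SPRY1, where 5.94% of all genes fell and 11.4% changed either way. ETV4 averaged 53.3 ± 12.2 in fluoxetine IC5 and 145 ± 35.5 in control (SD, n = 8 each; log2 difference -1.33 ± 0.16 SE, limma adjusted p = 9.5e-10). DUSP6 averaged 196 ± 34.3 and 435 ± 72.5 (-1.15 ± 0.11, limma adjusted p = 1.5e-14), the lowest DUSP6 mean of the 12 groups. SPRY4 averaged 132 ± 23.5 and 291 ± 59.0 (-1.09 ± 0.12, limma adjusted p = 4.2e-11), and no fluoxetine library of these 3 genes reached the lowest control library. DUSP4 differed by only -0.38 but with very little spread (1175 ± 25.1 and 1516 ± 40.8; limma adjusted p = 1.2e-21). ETV1 fell by 0.77, SPRY2 fell by 0.55, SPRED1 fell by 0.41 and SPRED2 fell by 0.36 on the log2 scale, with limma adjusted p from 1.4e-17 to 0.012. The ETV5 difference of -1.30 (limma adjusted p = 0.0013) was -0.73 with limma adjusted p = 0.11 when control libraries 3 and 4 were left out, and the SPRED2 call was lost without fluoxetine IC5 library 5 (limma adjusted p = 0.053). The median over the members was -0.66, against 0.00 over all genes.

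With fluoxetine IC20/100, 7 of the 10 genes fell, where 7.54% of all genes fell and 14.4% changed either way. SPRY4 averaged 153 ± 34.5 in fluoxetine IC20/100 and 291 ± 59.0 in control (SD, n = 8 each; log2 difference -0.93 ± 0.12, limma adjusted p = 8.9e-09), and ETV4 averaged 77.2 ± 19.7 and 145 ± 35.5 (-0.89 ± 0.16, limma adjusted p = 2.1e-05). DUSP6 (-0.57), ETV1 (-0.45) and SPRY2 (-0.44) fell by less, with limma adjusted p of 7.2e-04 or lower. SPRED2 (-0.33, limma adjusted p = 0.018) and SPRED1 (-0.32, limma adjusted p = 0.043) were close to the threshold: the SPRED1 call was lost in 11 of 16 fits that left out 1 library of either group, with limma adjusted p up to 0.12, and the SPRED2 call was lost in 2 of 16, up to 0.059. SPRY1 (-0.24), DUSP4 (-0.06) and ETV5 (-0.41) did not pass.

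With chlorpyrifos, ETV1, SPRY2 and SPRY4 lay wholly below control at IC5 and again at IC20/100. The share of all genes without overlap was not computed for compounds other than methyl mercury, so nothing is read from this. At IC5, 5 of the 10 genes fell and 1 rose, where 9.75% of all genes fell and 9.92% rose, 19.7% together. ETV4 averaged 81.2 ± 17.2 in chlorpyrifos IC5 and 145 ± 35.5 in control (SD, n = 8 each; log2 difference -0.80 ± 0.16, limma adjusted p = 9.5e-05), and SPRY4 averaged 171 ± 14.8 and 291 ± 59.0 (-0.74 ± 0.12, limma adjusted p = 1.8e-06). ETV1 (-0.57), DUSP6 (-0.52) and SPRY2 (-0.44) also fell, with limma adjusted p of 1.1e-04 or lower. DUSP4 rose by 0.09 (1617 ± 26.1 and 1516 ± 40.8; limma adjusted p = 0.0036), a difference of 1.07-fold with no overlap between the groups. At IC20/100, 7 of the 10 fell and none rose, where 7.02% of all genes fell and 14.1% changed either way. SPRY4 (-0.94, limma adjusted p = 8.7e-09), ETV4 (-0.87, limma adjusted p = 4.7e-05), DUSP6 (-0.60, limma adjusted p = 1.2e-05), ETV1 (-0.54, limma adjusted p = 4.6e-05), SPRY2 (-0.44, limma adjusted p = 4.1e-13) and SPRED2 (-0.37, limma adjusted p = 0.0096) were among them. The seventh was ETV5 (-1.01, limma adjusted p = 0.014), whose call was lost without control library 3 or 4 (limma adjusted p = 0.091 and 0.088).

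Acrylamide IC5 moved the members in both directions, in an exposure where 42% of all genes were called (20.5% higher and 21.5% lower). ETV4 averaged 65.1 ± 13.3 in acrylamide IC5 and 145 ± 35.5 in control (SD, n = 8 each; log2 difference -1.08 ± 0.16, limma adjusted p = 5.3e-08), with no overlap. SPRY4 averaged 204 ± 26.2 and 291 ± 59.0 (-0.48 ± 0.12, limma adjusted p = 7.4e-04). DUSP6 rose: it averaged 563 ± 86.2 in acrylamide IC5 and 435 ± 72.5 in control (0.38 ± 0.11, limma adjusted p = 0.0021), higher in all 6 sequencing runs although the ranges overlapped. ETV5 (-0.92, limma adjusted p = 0.0099), SPRY1 (-0.25, limma adjusted p = 0.027) and SPRY2 (-0.12, limma adjusted p = 0.024) also fell, 5 genes lower and 1 higher in all. Each of these last 3 calls was lost when single libraries were left out: ETV5 without control library 3 or 4 (limma adjusted p = 0.071 and 0.070), SPRY1 in 5 of 16 fits (up to 0.091) and SPRY2 in 3 of 16 fits (up to 0.061). A share of 6 in 10 lies near the 42% of all genes called here. At acrylamide IC20/100 limma called none of the members, 1 passed an unadjusted p of 0.05 (ETV5), edgeR called none and DESeq2 called ETV5; 0.0596% of all genes were called. Its log2 differences lay between -0.21 and 0.10, except -0.95 for ETV5, which was -0.38 without control libraries 3 and 4.

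With valproic acid IC5, 4 of the 10 genes fell, where 12.4% of all genes fell and 26.9% changed either way. SPRY2 averaged 683 ± 31.3 in valproic acid IC5 and 895 ± 44.9 in control (SD, n = 8 each; log2 difference -0.39 ± 0.04, limma adjusted p = 1.6e-11), with no overlap. ETV4 (-0.65, limma adjusted p = 0.0011), DUSP6 (-0.42, limma adjusted p = 0.0012) and DUSP4 (-0.11, limma adjusted p = 2.5e-04) also fell, while SPRY1 (0.03) and ETV1 (-0.09) lay closest to control. At IC20/100, 3 fell, where 1.37% of all genes fell and 2.54% changed either way: SPRY2 (760 ± 36.9 and 895 ± 44.9; -0.24, limma adjusted p = 3.6e-04), SPRY4 (-0.52, limma adjusted p = 0.0068) and ETV4 (-0.63, limma adjusted p = 0.019). The ETV4 call was lost without control library 1 or valproic acid IC20/100 library 4 (limma adjusted p = 0.054 and 0.071), and none of the 3 was called when the fit held only these groups.

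Comparing IC5 directly with IC20/100 of the same compound needs no control library. Acrylamide IC5 was lower than IC20/100 in ETV4 (65.1 ± 13.3 at IC5 and 119 ± 26.7 at IC20/100, SD, n = 8 each; log2 difference -0.88, limma adjusted p = 5.5e-06), SPRY1 (468 ± 69.7 and 594 ± 87.8; -0.35, limma adjusted p = 0.0016) and ETV1 (-0.25, limma adjusted p = 0.044, lost in 9 of 16 fits without 1 library, up to 0.10). It was higher in DUSP6 (563 ± 86.2 and 406 ± 57.9; 0.48, limma adjusted p = 1.1e-04), where 41.1% of all genes were called, 20% higher and 21.1% lower. Fluoxetine IC5 was lower than IC20/100 in DUSP4 (1175 ± 25.1 and 1453 ± 43.6; -0.32, limma adjusted p = 8e-17) and DUSP6 (196 ± 34.3 and 291 ± 27.3; -0.58, limma adjusted p = 6.6e-05), and neither gene's groups overlapped, where 3.76% of all genes were called, 1.46% lower. Valproic acid IC5 was lower in SPRY2 (683 ± 31.3 and 760 ± 36.9; -0.15, limma adjusted p = 0.0081), where 17% were called, 7.27% lower. Chlorpyrifos IC5 was higher in DUSP4 (1617 ± 26.1 and 1488 ± 52.9; 0.13, limma adjusted p = 0.0091), where 0.0497% were called, 0.0397% higher, and that call was lost without chlorpyrifos IC20/100 library 6 (limma adjusted p = 0.071).

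At IC20/100 several members had nearly equal levels in the 3 compounds dissolved in DMSO. ETV4 averaged 76.5 in chlorpyrifos, 77.2 in fluoxetine and 80.7 in methyl mercury, against 119 in acrylamide and 90.8 in valproic acid, which were dissolved in medium. DUSP6 averaged 283, 291 and 278 in the DMSO-dissolved compounds in the same order, against 406 in acrylamide and 356 in valproic acid. SPRY4 averaged 149, 153 and 152, against 246 in acrylamide and 198 in valproic acid. The levels were less alike at IC5. There ETV4 averaged 81.2, 53.3 and 46.7 in the DMSO-dissolved compounds in the same order, against 65.1 in acrylamide and 91.4 in valproic acid. DUSP6 averaged 302, 196 and 284 at IC5, against 563 and 323, and SPRY4 averaged 171, 132 and 112, against 204 and 240. Chlorpyrifos and fluoxetine at IC20/100 were then set against acrylamide and valproic acid at IC20/100, with neither methyl mercury nor control libraries. That comparison was chosen after these values were seen, so its differences are described without a test. The log2 differences (with SE) were -0.56 ± 0.09 for SPRY4, -0.47 ± 0.11 for ETV4, -0.41 ± 0.07 for ETV1, -0.40 ± 0.07 for DUSP6, -0.31 ± 0.03 for SPRY2 and -0.24 ± 0.08 for SPRED1. SPRED2 (-0.18), ETV5 (-0.08), SPRY1 (-0.08) and DUSP4 (-0.04) differed less, and no member's groups were free of overlap. Solvent and compound cannot be told apart in this design. The sum of 8 mesenchymal markers was 1244 to 1719 in chlorpyrifos and 1344 to 1861 in fluoxetine, against 1872 to 2466 in acrylamide and 1463 to 2379 in valproic acid, and its part in these differences was not tested.

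Differentiation gave the largest differences of all. Every member was lower in day 10 control co-cultures than in NPC, all 10 with no overlap between the groups and in all 6 sequencing runs, where 22.3% of the 18063 genes tested lay wholly lower, 36.8% fell by limma's test and 70.7% changed either way. ETV4 averaged 145 ± 35.5 in control and 2780 ± 236 in NPC (SD, n = 8 each), 20.8-fold lower (log2 difference -4.38 ± 0.08 SE, limma adjusted p = 2.4e-12). DUSP6 averaged 435 ± 72.5 and 6541 ± 322, 15.5-fold lower (-3.95 ± 0.07, limma adjusted p = 1.8e-12). SPRY4 (291 ± 59.0 and 3604 ± 253; -3.69, limma adjusted p = 4.5e-11) and SPRY1 (556 ± 98.1 and 5636 ± 379; -3.34, limma adjusted p = 4.7e-11) followed. SPRY1 thus had the fourth largest fall here. SPRY2 and ETV5 each fell by 2.50 on the log2 scale, ETV1 fell by 1.95, SPRED1 fell by 1.67 and DUSP4 fell by 1.55, with limma adjusted p of 1.4e-05 or lower. SPRED2 changed least (941 ± 96.6 and 1421 ± 98.5; -0.64 ± 0.06, limma adjusted p = 1.7e-06). The median over the members was -2.50, against -0.01 over all genes. Of 12 progenitor markers 7 were lower and 5 higher (sums of 107525 to 115906 in control and 121233 to 128873 in NPC), and of 8 mesenchymal markers 6 were lower (sums of 1666 to 2159 in control and 3618 to 4834 in NPC). The part of these markers in the members' differences was not tested.

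**Figure D3:**
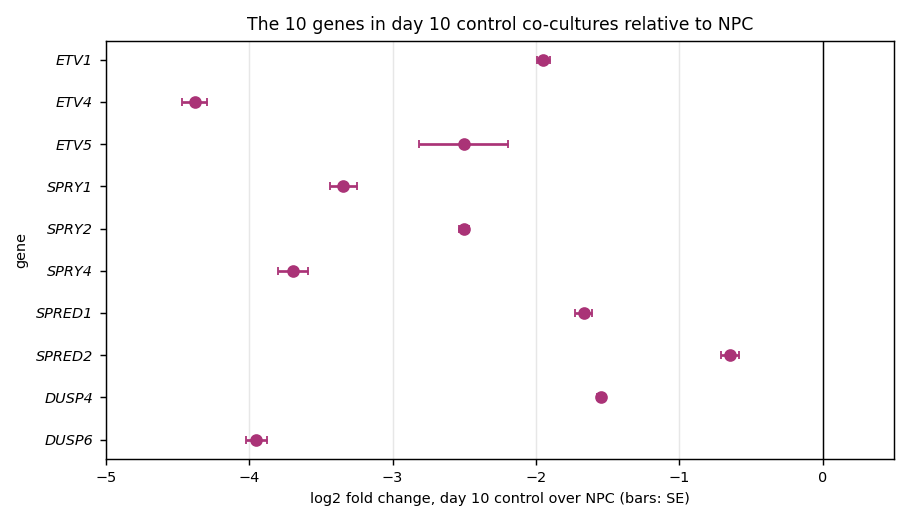
Fitted log2 difference of each of the 10 genes (rows) between day 10 control co-cultures and NPC, with bars of 1 SE. All points lie left of 0, from -4.38 for ETV4 to -0.64 for SPRED2, and ETV5 has the widest bar (0.31).

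Upstream of the feedback genes, FGF genes and FGF receptors did not share one direction in acrylamide IC5, valproic acid IC5 or with differentiation. In methyl mercury, chlorpyrifos and fluoxetine, at either concentration, none of either list was called higher. In methyl mercury IC5, 1 of 13 measured FGF genes, a list that includes intracellular ones, was called (10.9% of all genes were). This was FGF17, which averaged 33.9 ± 11.2 in methyl mercury IC5 and 74.2 ± 10.9 in control (SD, n = 8 each; log2 difference -1.11). Of 6 genes on the receptor list 1 was called, FGFR3 (-0.33 ± 0.05 SE), which was also lower in fluoxetine IC5 (-0.54 ± 0.05 SE). In acrylamide IC5, FGFR2, a receptor for several FGFs, averaged 2256 ± 306 and 814 ± 205 in control (1.52, limma adjusted p = 1.1e-16), while FGF11, an intracellular FGF homologous factor, was lower (206 ± 26.0 and 409 ± 65.7; -0.95, limma adjusted p = 2e-14). FGF18 (0.87, limma adjusted p = 1.8e-08) and FGF10 (0.61, limma adjusted p = 0.012) were higher there. Of the 13 FGF genes 3 were called higher and 7 lower in acrylamide IC5, where 20.5% of all genes rose and 21.5% fell. Among 18 adaptor, RAS, RAF, MEK and ERK genes, 1 was called higher and none lower in methyl mercury IC5, where 10.9% of all genes were called, and 9 were lower and 4 higher in control than in NPC, a share close to the 70.7% of all genes called there. FGF receptors changed unevenly with differentiation: FGFR1 averaged 5290 ± 575 in control and 12303 ± 1490 in NPC (-1.26, limma adjusted p = 3.2e-09), whereas FGFR3 averaged 3605 ± 383 and 1332 ± 97.6 (1.41, limma adjusted p = 7.5e-10). NTRK2, the receptor of BDNF, was higher in control (6169 ± 434) than in NPC (517 ± 34.5; 3.60, limma adjusted p = 3.3e-14), and lower in methyl mercury IC5 (3759 ± 196) than in control (6169 ± 434; -0.74). RET was also lower in methyl mercury IC5 (28.1 ± 4.91) than in control (47.4 ± 12.6), by -0.72. Of a list of 9 receptor genes that includes both, 4 were called lower at IC5 and 6 at IC20/100, with 0 higher. Over all genes, 10.9% and 15.8% were called there in either direction. The fall was not particular to methyl mercury. In chlorpyrifos IC5, 6 of the 9 were called lower and 0 higher. In chlorpyrifos IC20/100, fluoxetine IC5 and fluoxetine IC20/100, 4 each were lower and 0 higher. Of all genes 9.75%, 7.02%, 5.94% and 7.54% fell in these groups, in that order. In acrylamide IC5 and valproic acid IC5, 5 each were lower and 1 higher, where 21.5% and 12.4% of all genes fell. Valproic acid IC20/100 had 1 lower and acrylamide IC20/100 had 0.

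Other genes known to follow ERK activity included some that moved with the members and some that did not. Of 23 measured, 4 were called lower and none higher in methyl mercury IC5, 5 fell and none rose in fluoxetine IC5, and 6 fell and 5 rose in acrylamide IC5. Over all genes, 10.9% were called in methyl mercury IC5, 11.4% in fluoxetine IC5 and 42% in acrylamide IC5, so the count in acrylamide IC5 was near the share of all genes. EPHA2, an ephrin receptor, averaged 335 ± 51.6 in methyl mercury IC5, 396 ± 53.2 in fluoxetine IC5 and 639 ± 119 in control (SD, n = 8 each), with log2 differences of -0.90 in methyl mercury IC5 and -0.66 in fluoxetine IC5 (limma adjusted p = 1e-07 for fluoxetine). In chlorpyrifos IC5 it averaged 222 ± 26.2 (-1.50, limma adjusted p = 1.5e-22). Cyclin D1 (CCND1) averaged 2439 ± 206 in methyl mercury IC5 and 3705 ± 340 in control (-0.61). In acrylamide IC5 the immediate early gene EGR1 was higher, 230 ± 42.1 against 68.7 ± 7.23 in control (1.70, limma adjusted p = 6.4e-25), as was SPHK1, a sphingosine kinase (98.0 ± 14.6 against 13.9 ± 5.30; 2.72, limma adjusted p = 1e-11), the exposure in which DUSP6 rose and ETV4 fell. With differentiation 18 of 23 fell and 2 rose, where 36.8% of all genes fell: EGR1 averaged 68.7 ± 7.23 in control and 1387 ± 84.6 in NPC (-4.29, limma adjusted p = 3.3e-13). Among 15 other inhibitors tested there, 8 fell and 3 rose, a share near the 70.7% of all genes called there. Among those that fell was IL17RD, an inhibitor of FGF signalling at the membrane (1842 ± 156 and 6763 ± 259; -1.87, limma adjusted p = 3e-11).

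**Figure D4:**
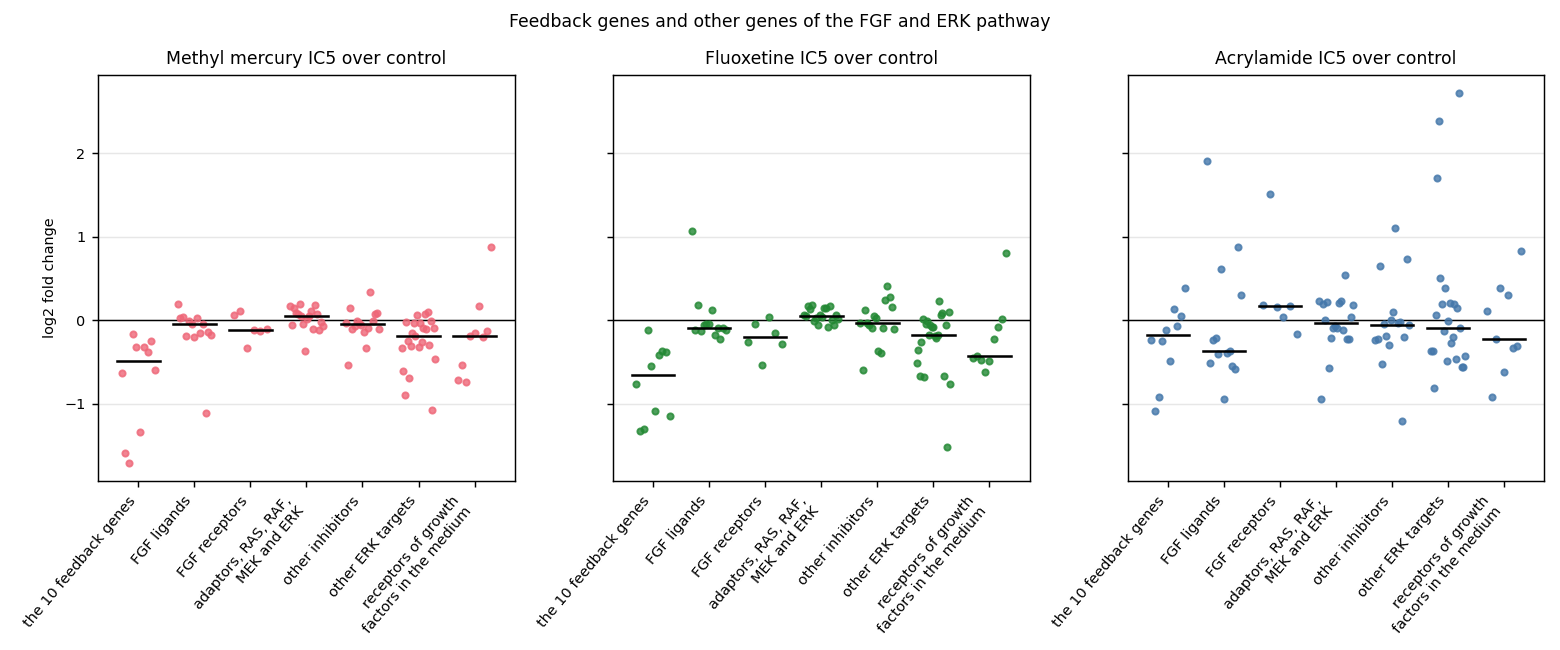
Fitted log2 differences from control in methyl mercury IC5, fluoxetine IC5 and acrylamide IC5 (panels) for the 10 feedback genes and for 6 lists of other pathway genes (points are genes, black bars the list medians). The feedback genes have medians of -0.49, -0.66 and -0.18, while the adaptor and kinase list has medians of 0.05, 0.05 and -0.03.

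Across the 11 day 10 groups the members followed a common profile to different degrees, given as a description over group means that share runs and normalisation. The correlation of each member's group means with the mean profile of all 10 was 0.96 for SPRY4, 0.93 for ETV1, 0.92 for SPRED2, 0.89 for SPRED1, 0.86 for SPRY2 and ETV4, 0.84 for DUSP6, 0.73 for DUSP4, 0.65 for ETV5 and 0.43 for SPRY1. Each member is part of that mean, which raises its own value. SPRED1 and DUSP6 were the closest pair (r = 0.93), and SPRY1 and ETV5 were the least alike (r = 0.03). Of 13954 other genes, the 6 whose group means were most like the mean profile were CYP26B1 (r = 0.95), EPHA3 (r = 0.94), SPRED3 (r = 0.92), MAB21L1 (r = 0.92), C2orf74 (r = 0.91) and SHISAL1 (r = 0.90), each over 11 groups. CYP26B1, a retinoic acid hydroxylase, averaged 262 ± 82.9 in methyl mercury IC5, 324 ± 72.7 in fluoxetine IC5 and 860 ± 80.5 in control (SD, n = 8 each). SPRED3, the third SPRED gene, averaged 313 ± 40.1 in methyl mercury IC5, 300 ± 54.1 in fluoxetine IC5 and 449 ± 29.1 in control.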

How the data were processed

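RNA came from H9-derived cultures, with polyadenylated RNA made into stranded libraries, per the labels' protocols. Each of 6 sequencing runs held 16 libraries, with every group in every run. Per the submitters' processing notes, Salmon 1.3.0, DESeq2 1.30.0 and build GRCh38 were used, with no annotation release named. The deposited values are signal that the authors made from counts divided by 1 factor per library. Whole reads were recovered from it here: 100% of the values were whole within 0.001 read.

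The members and every gene and marker list were chosen with earlier results of these data known. Genes with values of at least 10 in at least 8 libraries were tested on log2(value + 2) with limma 3.58.1 (R 4.3.3), with run as a term and Benjamini-Hochberg adjustment over all genes; a call is an adjusted p under 0.05. Day 10 comparisons share 1 fit of 88 libraries (20136 genes), and control against NPC used 16 libraries (18063 genes). The pseudocount of 2 understates changes of low genes. The test was tried first on simulated data. Alternatives were edgeR 4.0.16 and DESeq2 1.42.0 on the recovered counts, TMM scaling, other pseudocounts and filters, no run term, fits of only the groups compared, a replicate block and leaving out libraries. The solvent comparison and the fits without control libraries 3 and 4 were added after values were seen. Other pathway genes named were taken, per list and comparison, from called genes with the largest differences, at most 3, of at least 1.5-fold and with mean values of at least 20. FGFR3 in methyl mercury IC5 and fluoxetine IC5 is named although under 1.5-fold. Not every gene that met the rule is named above. LIF (-1.07 in methyl mercury IC5, -1.51 in fluoxetine IC5) and EGR2 (-4.51 in control against NPC) also met it. The genes most like the mean profile were the 6 with the highest correlation among genes with a mean of at least 50. Positions and exon lengths are from GENCODE 29, and promoters from RefSeq.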

Additional observations from a re-analysis of the deposited data

Results flagged for a closer look

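A single library stood far from the other 7 in 11 of 120 sets (10 genes in 12 groups), by the gap to its nearest neighbour relative to the range of the group, where chance alone gives about 1 in 20. Valproic acid IC5 library 7 was high in ETV1, with a normalised count of 1082 against 654 to 766 in the others, and in ETV4, with 149 against 66.0 to 104. Chlorpyrifos IC20/100 library 5 was high in ETV5 (157 against 58.5 to 81.4) and in SPRY4 (201 against 129 to 159), and library 7 of that group was high in DUSP6 (387 against 247 to 295). ETV5 had a high library in fluoxetine IC5 (149 against 41.3 to 68.6), methyl mercury IC5 (78.8 against 33.9 to 51.1), methyl mercury IC20/100 (234 against 59.2 to 109) and NPC (1112 against 796 to 938), and its counts share exon sequence with DGKG. SPRY2 was high in library 8 of methyl mercury IC20/100 (876 against 597 to 703), the library that also stood apart in its summed count. ETV4 was high in NPC library 3 (3319 against 2578 to 2898). The causes were not tested.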

How the results depend on the processing

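Counts of members called, or for methyl mercury the median difference over them, kept their direction throughout; they stayed within the limits set for a like result in 283 of 288 values with 1 library left out and in 188 of 196 values under other settings. Counts still moved with 1 library left out. They ranged from 4 to 8 in acrylamide IC5 against control (6 with all libraries) and from 3 to 6 between the acrylamide concentrations (4). In fluoxetine IC20/100 against control they ranged from 5 to 7 (7). The values outside the limits were as follows. DESeq2 called 1 member in acrylamide IC20/100 against control (limma none) and 4 between the fluoxetine concentrations (limma 2). With only the groups compared in the fit, no member was called (0) in valproic acid IC20/100 against control, between the chlorpyrifos concentrations or between the valproic acid concentrations, and 0 between the chlorpyrifos concentrations without the run term. Leaving out methyl mercury IC20/100 library 8 gave 2 calls between the valproic acid concentrations and a median of -0.11 between the methyl mercury concentrations. With 1 library left out, calls ranged from 0 to 1 for the chlorpyrifos, 2 to 4 for the fluoxetine and 1 to 2 for the valproic acid concentrations, and the methyl mercury median from -0.107 to -0.0129. The cause was not tested.

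Replicate numbers did not pair the libraries; with a replicate block, members called were 6 in acrylamide IC5, 9 in fluoxetine IC5, 8 in chlorpyrifos IC20/100 and 10 in control against NPC, and the block moved no member count by over 1.5 times.

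Counts over all genes were less stable where few genes were called. Acrylamide IC20/100 against control had 12 genes with limma, 28 with DESeq2, 27 without methyl mercury IC20/100 library 8 and 0 with only the groups compared. The last setting also gave 351 of 3185 for methyl mercury IC20/100, 22 of 511 for valproic acid IC20/100, 27 of 1042 between the methyl mercury concentrations, 2 of 10 for chlorpyrifos and 450 of 758 for fluoxetine. DESeq2 gave 62 for chlorpyrifos. ETV4 at day 10 rests on as few as 17 reads a library, which limits its precision.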
